A study of Homo sapiens with 2 samples.

Results

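The nuclear respiratory chain genes were taken by symbol: every gene on the array whose annotated symbol starts with NDUF, SDH, UQCR, COX followed by a digit, or ATP5, with pseudogenes left out. They were 40 of the 14884 named genes, 37 protein-coding and 3 non-coding. They were measured in SNK6 cells, an established human lymphoma line of NK/T-cell type that carries the Epstein-Barr virus and was kept in medium with 10% serum and 500 U/ml interleukin-2. One group of cells received romidepsin, which inhibits the class I histone deacetylases, for 72 h (1 array), and the other received romidepsin together with sildenafil, a phosphodiesterase 5 inhibitor, for 72 h (1 array). Romidepsin was therefore present in both groups, and no untreated or sildenafil-only cells were analysed here. No dose is stated in the labels, and a single cell line stands for the disease.

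The respiratory chain sits in the inner mitochondrial membrane. Complex I takes electrons from NADH and complex II takes them from succinate. Complex III passes them on to cytochrome c, and complex IV hands them to oxygen. Proton pumping by complexes I, III and IV drives complex V, the ATP synthase. The catalytic core of complex IV and part of complexes I, III and V are encoded in mitochondrial DNA, while complex II and all other subunits and assembly factors are encoded in the nucleus. Lymphoma cells, like other dividing cells, use the chain both for ATP and for the regeneration of the electron acceptors that biosynthesis needs.

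The label of subunit genes held for only part of this set. Of the 37 protein-coding members, 23 encode subunits and 14 encode assembly factors or regulators. Complex I was represented by 2 assembly factors and complex II by 4 assembly factors, with no subunit of either among the members. Complex III had 5 subunits, complex IV had 16 subunits and 7 assembly or supercomplex factors, and complex V had 2 small membrane subunits and 1 inhibitor protein. From a list of 109 subunit, assembly and regulator symbols, 72 were not analysed here, among them 45 of complex I and 16 of complex V. None of the electron-transferring subunits of complexes I and II, the Rieske protein of complex III or the F1 subunits of complex V was among the members, so a value for a complex describes these genes and not the whole complex.

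Signals are the deposited log2 values. A gene is represented by its brightest probe set, and a difference is its log2 signal on the sildenafil array minus that on the other array. A gene passed the filter at a signal of 3.91 or more on at least 1 array, which is the median of the whole table. Of the 40 members 36 passed, as did 10081 of all named genes. With 1 array a group there is no replicate error and no test. For scale, each difference can be set beside the SD of the differences of all genes in the same decile of mean signal, 1 of 10 equal groups. This SD fell from 0.34 in the dimmest decile to 0.12 in the brightest, and it is a spread between genes and not between cultures. In the dimmest decile, genes with a mean below 3.91 passed by their brighter array only. Its SD therefore partly reflects the filter, and genes below the filter on both arrays had an SD of 0.26. Members past the filter all had means of 4.37 or more, above that decile. Treatment and any array batch cannot be told apart.

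The identity of the cells was checked on markers. Of 12 listed NK-cell markers 8 were analysed here, and all 8 passed the filter. The cytotoxic granule gene PRF1 was at 8.83 without and 8.81 with sildenafil and the surface marker NCAM1 (CD56) at 6.63 and 6.54. NCR3 was dimmer, at 4.70 and 4.69, and GNLY passed narrowly through the sildenafil array only (3.82 and 3.92). CD14, LYZ and EPCAM, which mark monocytes, myeloid cells and epithelium, lay below the filter on both arrays. Of 4 listed B-cell markers only PAX5 was analysed, and it passed the filter (5.23 and 5.05). The myeloid genes CD68 (6.72 and 6.61) and CSF1R (4.01 and 4.28) passed it too. So did the keratins KRT8 (5.43 and 5.13) and KRT18 (7.04 and 7.38). CD68 and KRT18 were brighter than NCAM1 on both arrays, so the markers alone do not settle the identity of the cells.

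One member needs care before its value is used. COX6A1, a subunit of complex IV, had 2 probe sets. The brighter one read 11.22 without and 11.20 with sildenafil. However, COX6A1 lies on chromosome 12 in the RefSeq annotation of GRCh38.p14. None of the 10 named probe sets next to the brighter one in identifier order belongs to a gene there. Chromosome 6 is the most frequent among those 10. The other COX6A1 probe set, whose 10 neighbours all lie on chromosome 12, read 3.73 and 3.33, below the filter on both arrays, with a difference of -0.40. For the other 41 of the 42 member probe sets, most neighbours lay on the chromosome of the gene.

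Most protein-coding members were slightly lower with sildenafil, and none was far lower. Of the 33 that passed the filter, 26 were lower and 7 higher, with a median difference of -0.11. Over all 10081 named genes the median was -0.01 and 52.4% were lower, and of the protein-coding ones 53.0%. Most of the 33 lay in signal deciles 6 to 10 (10 is the brightest), where 56.7% to 61.6% of named genes were lower. The spread among the members ran from COX7B at -0.41 to COX4I2 at 0.41. None of the 36 members past the filter reached 1.5-fold in either direction, against 1.99% of all named genes (1.02% higher and 0.972% lower). At a log2 difference of 0.32 or more, 3 members were lower (COX7B, COX17 and COX7C) and 3 higher (COX4I2 and the non-coding NDUFA6-DT and NDUFB2-AS1), against 6.04% of all named genes lower, 6.69% higher and 12.7% either way. Fewer cells of a type and less RNA per cell cannot be told apart in such bulk samples.

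**Figure D1:**
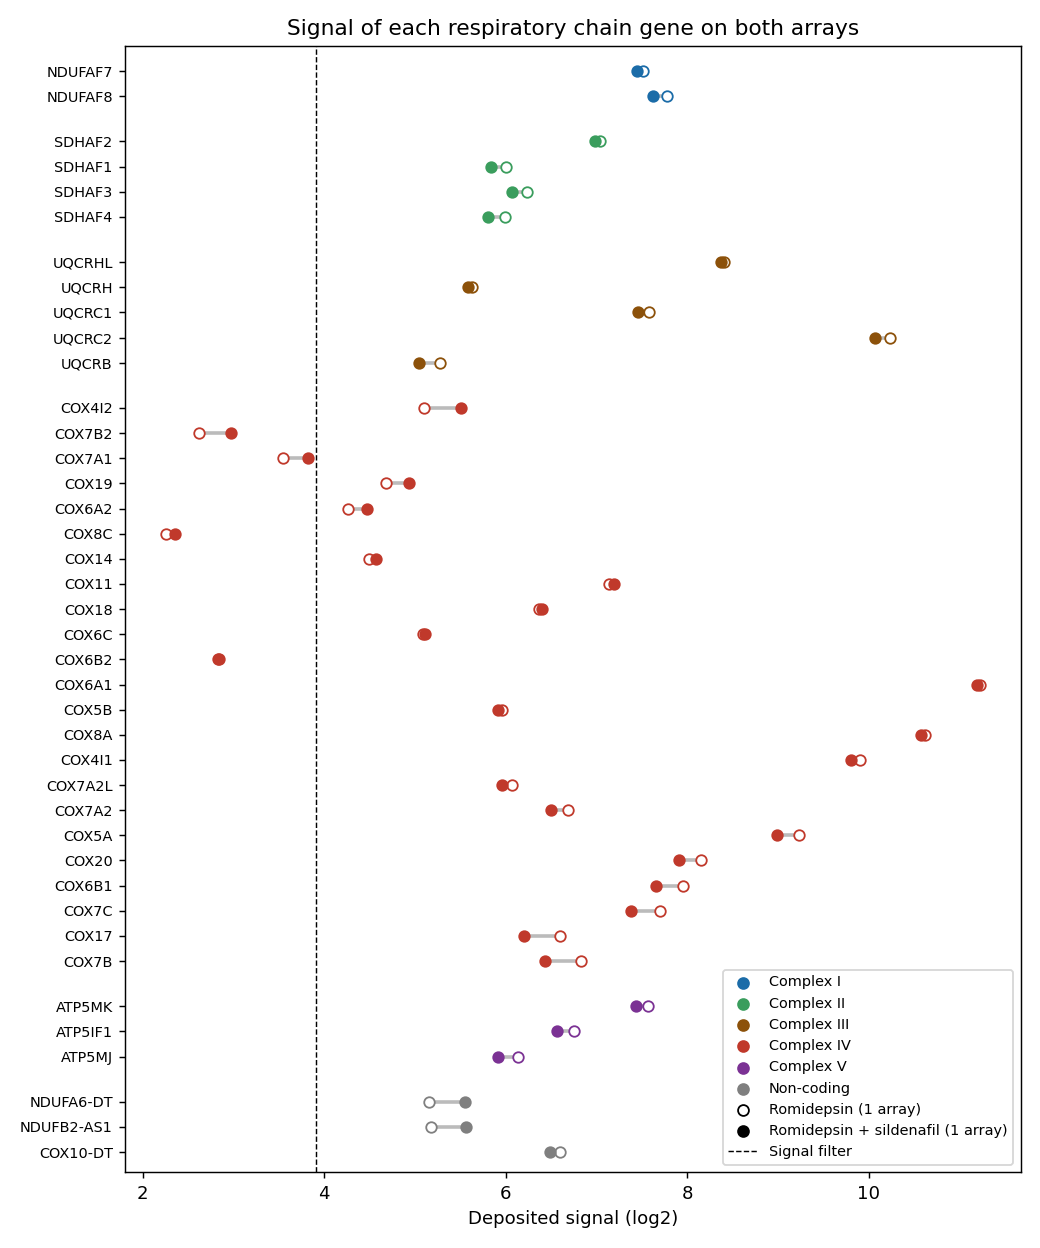
Deposited log2 signal (horizontal axis) of each of the 40 members without sildenafil (open circles) and with it (filled circles), 1 array each, grouped by complex; the dashed line is the filter at 3.91. As deposited, every filled circle in complexes I, II, III and V lies to the left of its open circle (UQCRH and UQCRHL turn under quantile normalization), while complex IV holds genes that lie on either side.

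Direction depended on scaling for the members nearest to 0. Among the 33 protein-coding members, 28 were lower after centring each array on its median, where 59.7% of all named genes were lower. After lowess centring of the difference on signal 25 were lower, against 49.8% of all named genes. After quantile normalization 22 were lower (66.7%, against 78.8% as deposited), and over all named genes the share lower moved to 44.4%. The median of the protein-coding members was -0.06 after quantile normalization, where that of all named genes was 0.0241. After lowess centring it was -0.08, against 0.0009 for all named genes. UQCRH, UQCRHL, COX5B and COX8A turned to values between 0.00 and 0.03 under quantile normalization, and UQCRHL to 0.01 under lowess centring. COX6C and COX18 turned to -0.00 under median centring.

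Complex IV, with the most genes, had the widest range. Complex I had a median difference of -0.11 over 2 genes, complex II of -0.17 over 4, complex III of -0.11 over 5, complex IV of -0.04 over 19 and complex V of -0.19 over 3. All 14 members of complexes I, II, III and V were lower with sildenafil as deposited, between -0.23 and -0.03, of which UQCRH and UQCRHL turned under quantile normalization. In complex IV 12 were lower and 7 higher, between -0.41 and 0.41. The complex IV median moved to -0.0197 after lowess centring, -0.0237 after quantile normalization, -0.0708 with COX6A1 by its other probe set and -0.0993 with the mean of all probe sets. Quantile normalization also moved complex I to -0.0562 and complex III to -0.0476. It moved the median of all named genes too, from -0.0106 to 0.0241. The assembly factors and regulators of all complexes had a median of -0.13 over 14 genes, and the subunits -0.11 over 19. With 2 to 5 genes in each of 4 complexes, these medians rest on few genes and no order of the complexes was tested.

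**Figure D2:**
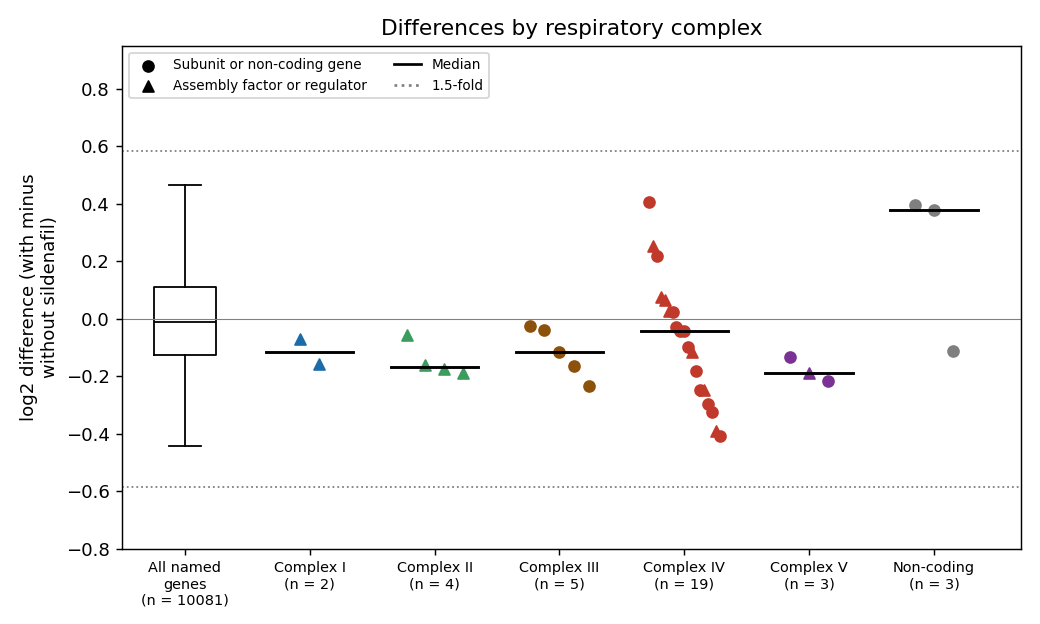
Difference in log2 signal (with minus without sildenafil) of the 36 members past the filter, by complex, with 1 point a gene (triangles are assembly factors or regulators) and a bar at the median. The box at the left shows all 10081 named genes, with its box from the lower to the upper quartile and whiskers over the central 95% (-0.44 to 0.47). All members lie between the dotted 1.5-fold lines, and complex IV spans the widest range.

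Complex I was represented by NDUFAF7 and NDUFAF8 only. NDUFAF7 is a methyltransferase that modifies a core subunit during assembly, and it read 7.52 without and 7.44 with sildenafil, a difference of -0.07. NDUFAF8, a partner of another assembly factor of complex I, read 7.78 and 7.62, a difference of -0.16. Both were lower with sildenafil, and both lay within 1 SD (0.14) of the median of their signal decile.

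Complex II was represented by its 4 assembly factors, which help to insert the flavin and iron-sulfur clusters of succinate dehydrogenase. SDHAF1, which acts on the iron-sulfur subunit, read 6.001 without and 5.84 with sildenafil, a difference of -0.16. SDHAF3, which acts on the same subunit, read 6.24 and 6.07, a difference of -0.17. SDHAF4, which binds the flavin-carrying subunit, read 5.99 and 5.80, a difference of -0.19. These 3 genes were lower by a like amount, less than the SD of 0.20 in their decile. SDHAF2, which is needed for attachment of the flavin, was the brightest of its group and the nearest to equal, at 7.04 and 6.98 (-0.06).

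Complex III was lower in all 5 subunits as deposited. UQCRC2, a core protein of the matrix side, was bright on both arrays (10.24 without and 10.07 with sildenafil). Its difference of -0.16 lay more than 1 SD (0.12) below the median of the brightest decile (-0.02), but shrank to -0.0476 under quantile normalization. UQCRC1, the other core protein, read 7.58 and 7.46, a difference of -0.11. UQCRB, a small subunit near the ubiquinone site, differed most within the complex, at 5.28 and 5.05 (-0.23), in a decile with an SD of 0.24. The hinge protein gene UQCRH, at 5.63 and 5.59, and its close relative UQCRHL, at 8.40 and 8.38, were nearly equal on both arrays. UQCRH and UQCRHL are near-identical in sequence, so their signals may not be separate.

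Complex IV, cytochrome c oxidase, held the lowest and the highest members. Among its widely expressed subunits, COX7B read 6.84 without and 6.43 with sildenafil, a difference of -0.41 in a decile with an SD of 0.17. COX7C read 7.70 and 7.38, a difference of -0.32, and COX6B1, on the side facing cytochrome c, read 7.95 and 7.66, a difference of -0.29. Both lay in a decile with an SD of 0.14. COX5A, a matrix-side subunit, read 9.23 and 8.98, a difference of -0.25 in the brightest decile. These 4 genes were the lowest subunits of the complex, and each lay more than 1 decile SD below the median of its decile.

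The other widely expressed subunits of complex IV were closer to equal. COX7A2 read 6.69 without and 6.50 with sildenafil (-0.18), and COX4I1, the largest nuclear subunit, read 9.91 and 9.81 (-0.10). COX8A, at 10.62 and 10.58, COX5B, at 5.96 and 5.92, and COX6C, at 5.09 and 5.11, differed by -0.04, -0.04 and 0.02. Of the 10 subunits other than tissue-restricted forms, 9 were lower as deposited, COX6C was the exception, and the median was -0.14. The count includes COX6A1 by its doubtful probe set (-0.03).

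Subunits with a tissue-restricted form were set beside it. Complex IV has 6 such pairs among the members, in which 1 gene is widely expressed and the other is known mainly from heart and muscle, lung or testis. The restricted form had the higher difference in all 6 pairs as deposited and in 5 after lowess centring. The lowess line was fitted only to genes past the filter, and COX6B2, COX7B2 and COX8C were dimmer than all of these. Their lowess values therefore rest on the dim end of the line. COX7A1 was below the filter too and took no part in the fit. All 6 restricted forms were higher with sildenafil as deposited and all 6 widely expressed forms lower, but COX6B2 fell below 0 under each other scaling (to -0.17 after lowess centring), COX8C after lowess centring (-0.08), and COX8A turned to 0.03 after quantile normalization. In the COX4 pair, COX4I2 read 5.10 without and 5.50 with sildenafil, a difference of 0.41, against -0.10 for COX4I1. COX6A2 read 4.26 and 4.48, a difference of 0.22, against -0.03 for the doubtful COX6A1 probe set. In the COX7B pair, COX7B2, below the filter on both arrays, differed by 0.35 and COX7B by -0.41.

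Signal moved together with this contrast. The restricted forms were dim: COX7A1 (3.55 and 3.83), COX6B2 (2.83 and 2.85), COX7B2 (2.62 and 2.97) and COX8C (2.26 and 2.36) lay below the filter on both arrays. Only 2 of the 6 pairs had both genes past it. Of the 4803 named genes below the filter on both arrays, 58.1% were higher with sildenafil, with a median of 0.05 and an SD of 0.26. Within the decile of COX4I2 the median was -0.01 and the SD 0.22. After lowess centring on signal, 4 restricted forms were above 0, with COX4I2 at 0.41, COX6A2 at 0.16, COX7B2 at 0.17 and COX7A1 at 0.15. Of these, only COX4I2 and COX6A2 were themselves in the fit. The genes of the fit had mean signals of 3.34 or more. COX6B2, COX7B2 and COX8C lay below that and all took the same shift of -0.18 from its dim end. For them this is not a centring on genes of like signal, and their signs after it cannot be read. COX7A1, at a mean signal of 3.69, was below the filter and also outside the fit. Fitted genes of that mean signal passed on their brighter array only, so they were selected for a difference. The value of 0.15 for COX7A1 is therefore no plain centring on like genes either. The part of signal in the contrast was not tested further.

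**Figure D3:**
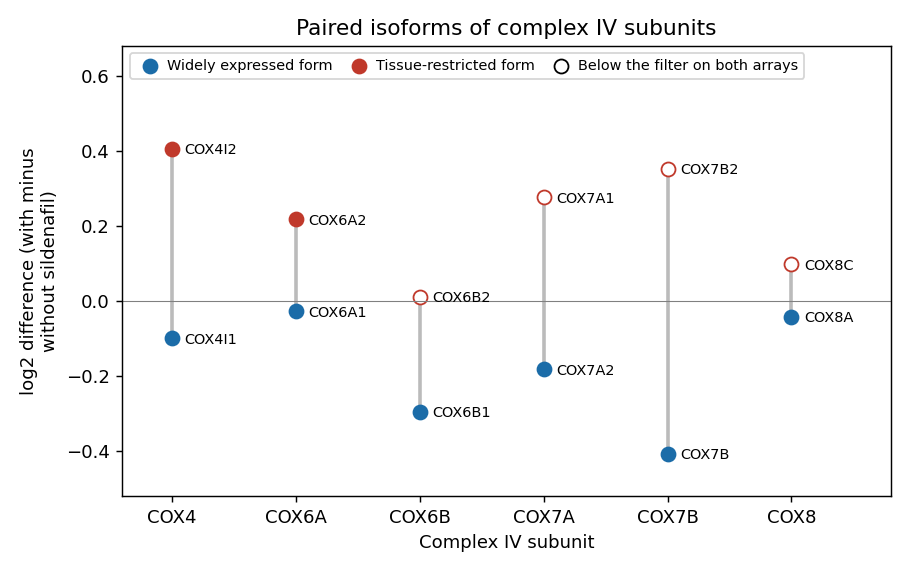
Difference in log2 signal (with minus without sildenafil) of the 6 pairs of complex IV isoforms, with the widely expressed form in blue and the tissue-restricted form in red; open circles mark genes below the filter on both arrays. Every red point lies above its blue partner as deposited, and 4 of the 6 red points are open. After lowess centring this held in 5 of 6, with COX6B2, COX7B2 and COX8C dimmer than every gene of the fit and COX7A1 also outside it.

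The assembly factors of complex IV went in both directions. COX17, the copper chaperone of the intermembrane space, read 6.60 without and 6.21 with sildenafil, a difference of -0.39 in a decile with an SD of 0.17. COX20, a chaperone of the mitochondrially encoded subunit 2, read 8.15 and 7.91, a difference of -0.25. COX19, which takes part in copper delivery, read 4.69 and 4.94, a difference of 0.25 in a decile with an SD of 0.26. COX7A2L, a supercomplex factor, read 6.07 and 5.96 (-0.11). COX11, which inserts copper, read 7.13 and 7.20 (0.06). COX14, at 4.49 and 4.57, and the insertase COX18, at 6.37 and 6.40, were also close to equal. Thus 3 of the 7 were lower and 4 higher, and the only one 0.32 or more apart was COX17.

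Copper delivery was looked at as a group chosen after its values were seen. Besides COX17, COX11 and COX19, it takes in SCO1 and SCO2, metallochaperones that load copper into the second subunit of complex IV, and COA6, a small protein that works with them. COA6 read 6.83 without and 6.21 with sildenafil, a difference of -0.62 or 1.54-fold, in the same signal decile as COX17. SCO1 differed by -0.02 and SCO2 by 0.15. By sign, COX17 and COA6 were lower and COX19 and SCO2 higher. COX17 and COA6 lay more than 1 SD (0.17) below the median of their decile. COX19 and SCO2 lay within 1 SD (0.26 and 0.20) of the medians of theirs, so no opposite direction is read from them. Every gene of this group rests on 1 probe set.

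Complex V was represented by 3 small proteins. ATP5MJ read 6.14 without and 5.92 with sildenafil, a difference of -0.22, and ATP5MK read 7.57 and 7.44, a difference of -0.13. Both encode small membrane subunits at the site where ATP synthases pair. ATP5IF1 encodes the inhibitor that stops the enzyme from running backwards, and it read 6.75 and 6.56, a difference of -0.19. The inhibitor and the subunits were lower by like amounts. All 3 lay within 1 SD of the median of their deciles, whose SDs ran from 0.14 to 0.20.

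The members were also set against genes of like signal. Of the 33 protein-coding members, 7 lay more than 1 decile SD below the median of their decile, against 14.7% of all named genes. They were COX7B, COX7C, COX17, COX6B1, COX5A, COX20 and UQCRC2, of which all but UQCRC2 belong to complex IV. Above by the same measure was 1 protein-coding member, COX4I2, against 13.1% of all named genes. Below and above together, these 8 of 33 are no larger a share than that of all named genes. With each decile's median subtracted, 26 of the 33 were below 0 and the median was -0.08.

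**Figure D4:**
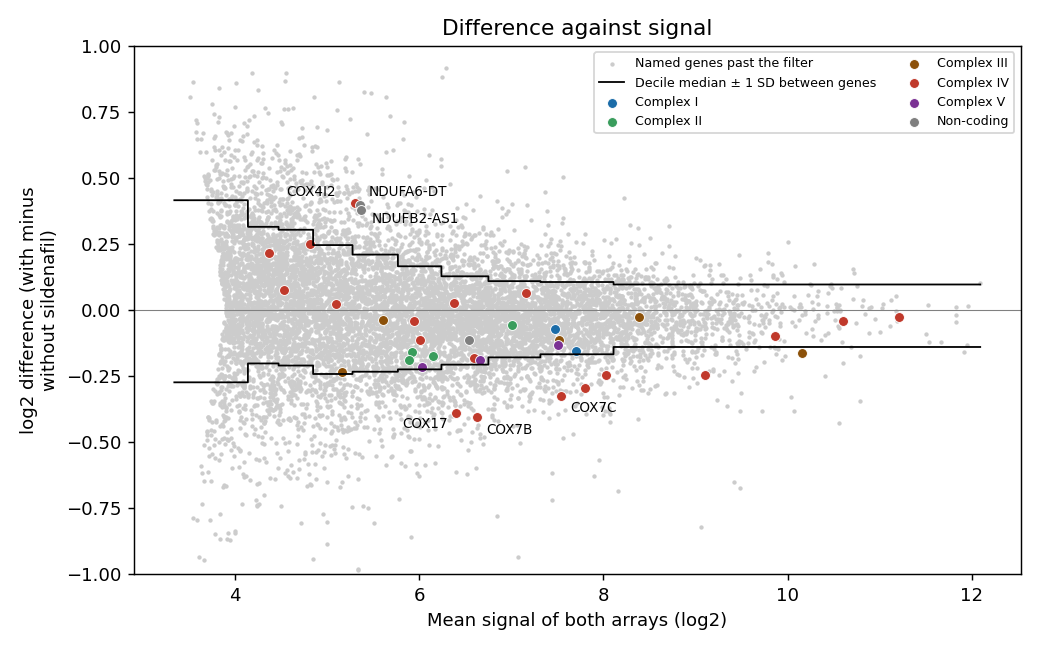
Difference in log2 signal (with minus without sildenafil) against the mean log2 signal of both arrays, for all named genes past the filter (grey) and the members (coloured by complex); the black steps mark the median ± 1 SD between genes in each decile of signal. Members beyond 0.3 are named, and 18 grey genes with differences beyond 1 lie outside the drawn range. The COX17, COX7B and COX7C points lie below the lower step.

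The 3 non-coding members carry the names of neighbouring respiratory genes and encode no subunit. NDUFA6-DT, a transcript divergent from the complex I gene NDUFA6, read 5.16 without and 5.55 with sildenafil on its brighter probe set, a difference of 0.40. Its other probe set read 3.19 and 3.96, below the filter level without sildenafil, so the size of its difference is uncertain. The brighter probe set alone gives 1.32-fold. NDUFB2-AS1, annotated as antisense to the complex I gene NDUFB2, read 5.18 and 5.56, a difference of 0.38. COX10-DT, divergent from the heme A synthesis gene COX10, read 6.60 and 6.49, a difference of -0.11. The first 2 lay more than 1 SD (0.22) above the median of their decile. The partner genes NDUFA6, NDUFB2 and COX10 were not analysed here.

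Promoter sequence was examined for what the members share. Many nuclear respiratory genes are known to be driven by NRF1, by ETS-family factors such as GABP, and by YY1. RefSeq windows of GRCh38.p14 from 250 bases before to 50 bases after each start were available for 34 of the 40 members and 27305 genes in all. They were searched on both strands for the NRF1 core, a palindrome whose letters are the longer run of capitals in the printed COX17 stretch without its first T, for the shorter TGCGCA, which can overlap that core, for CCGGAAG (ETS) and for AAGATGGC (YY1). A gene counted when any of its windows held the letters. CCGGAAG stood in 13 of the 34 members (38.2%), against 12.2% of all genes and 20.5% of those past the filter. TGCGCA stood in 12 (35.3%), against 9.76% and 15.0%. The NRF1 core stood in 2 members (5.88%), against 1.52% and 2.66%, and AAGATGGC in 4 (11.8%), against 3.52% and 6.16%.

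Any of these letters stood in 19 of the 34 members (55.9%), against 22.6% of all genes and 36.2% of those past the filter. Among the 28 protein-coding members past the filter with a window, 14 of the 16 with a match were lower with sildenafil and 10 of the 12 with none, against 52.4% of all named genes past the filter. In signal deciles 6 to 10, where most members lay, that share was 56.7% to 61.6%. The NRF1 core stood in the windows of both COX17 (-0.39) and COX18 (0.03). COX7B, the lowest member, had none of the matches. A match describes letters only.

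The following stretches, each 120 bases upstream of an annotated start and outside every annotated gene, are shown 5′ to 3′. They belong to some of the lower members with a match, chosen by name. COX18 (0.03) was chosen too but gave no such stretch. Capitals mark the letters searched for. The stretch of COX17 is chr3:119677458-119677577 on the minus strand, with its NRF1 letters 107 to 116 bases before the start. That of COX20 is chr1:244835078-244835197, that of COX6B1 is chr19:35648203-35648322 and that of SDHAF3 is chr7:97117578-97117697, all on the plus strand and all with ETS letters.
COX17: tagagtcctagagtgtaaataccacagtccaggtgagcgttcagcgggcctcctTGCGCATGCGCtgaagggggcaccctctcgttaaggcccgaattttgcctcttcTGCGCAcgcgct
COX20: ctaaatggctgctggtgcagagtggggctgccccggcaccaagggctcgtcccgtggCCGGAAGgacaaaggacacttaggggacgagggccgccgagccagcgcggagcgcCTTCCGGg
COX6B1: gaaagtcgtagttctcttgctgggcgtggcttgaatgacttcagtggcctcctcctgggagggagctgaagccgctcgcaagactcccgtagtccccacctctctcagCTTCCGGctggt
SDHAF3: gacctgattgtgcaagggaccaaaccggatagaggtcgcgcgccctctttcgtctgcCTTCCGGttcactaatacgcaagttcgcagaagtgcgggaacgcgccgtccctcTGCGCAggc
COX17 holds the NRF1 letters and the shorter TGCGCA again nearer the start, and COX20 holds the ETS letters on each strand.

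Some members start back to back with another gene. Within 1000 bases, 8 of the 34 members (23.5%) had a start facing away from theirs, against 20.1% of all genes in the table. The 8 include COX10-DT and NDUFA6-DT, which are named as divergent transcripts of their partners, so the share is no sign of an excess. The partners COX10, NDUFA6, CEBPZ (of NDUFAF7) and CPSF7 (of SDHAF2) had no value here. COX4I1 and EMC8, a gene of the endoplasmic reticulum membrane complex, start 151 bases apart, and they differed by -0.10 and -0.12. ATP5MK and PDCD11, a ribosome biogenesis gene, also start 151 bases apart and differed by -0.13 and -0.01. UQCRH (-0.04) and LRRC41 (0.13) start 82 bases apart. NDUFAF8 (-0.16) and TEPSIN (0.18) start 256 bases apart. The last 2 pairs had opposite signs as deposited, but UQCRH lay near 0 and turned to 0.0012 under quantile normalization.

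Other mitochondrial genes were read from 6 lists. The respiratory chain genes outside these symbols, mostly assembly factors with cytochrome c1 (CYC1), had a median of -0.02 over 33 genes, with 21 lower and 12 higher. Most of these genes lay in signal deciles 6 to 10, where 56.7% to 61.6% of named genes were lower. COA6 (-0.62) was the only 1 of these 33 past 1.5-fold, against 1.99% of all named genes (0.972% lower), so that 1 in 33 is near the background. UQCC2, an assembly factor of complex III, read 8.28 without and 7.86 with sildenafil (-0.42), and CMC1, a complex IV assembly factor, differed by -0.35. CYC1 differed by 0.01. This median lay nearer to that of all named genes (-0.01) than to that of the protein-coding members (-0.11). The mean went the other way: at -0.0618 it lay nearer to that of the protein-coding members (-0.0991) than to that of all named genes (-0.0046).

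The other lists fell on either side of the members' median of -0.11. The tricarboxylic acid cycle genes had a median of -0.02 over 10 genes, with 5 lower, 4 higher and PDHB equal on both arrays. Among them, DLST differed by -0.20, and IDH3B and PDHA1 by -0.11 each. The genes of coenzyme Q synthesis had a median of -0.02 over 6, with 4 lower; COQ8A was at -0.26, COQ8B at 0.17 and COQ4 at -0.125. Mitochondrial gene expression had a median of -0.10 over 8 genes, with 7 lower. MTIF3 (-0.20) and MTIF2 (-0.19), initiation factors of mitochondrial translation, and the RNA polymerase POLRMT (-0.14) were the furthest apart.

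Outer membrane channels (VDAC1 to VDAC3) and import genes had a median of -0.13 over 10 genes, with 8 lower and 2 higher. Most genes of this list and of mitochondrial gene expression lay in signal deciles 6 to 10. There, 56.7% to 61.6% of named genes were lower. TIMM44, which tethers the import motor, read 6.86 without and 6.42 with sildenafil (-0.44). TOMM22 differed by -0.22 and TIMM23 by -0.20. The carriers of ADP and phosphate on this list were not analysed here. Regulators of mitochondrial biogenesis had a median of 0.02 over 10 genes, with 5 lower and 5 higher. NRF1, the factor whose letters were searched for, read 6.43 and 6.21 (-0.22), while YY1 differed by 0.07. HCFC1 was at 0.20. TFEB, a lysosomal regulator, passed the filter through the sildenafil array only (3.8977 without and 4.36 with). Without TFEB the median was -0.00 over 9 genes, with 5 lower and 4 higher. None of the genes of these last 5 lists reached 1.5-fold, against 1.99% of all named genes.

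**Figure D5:**
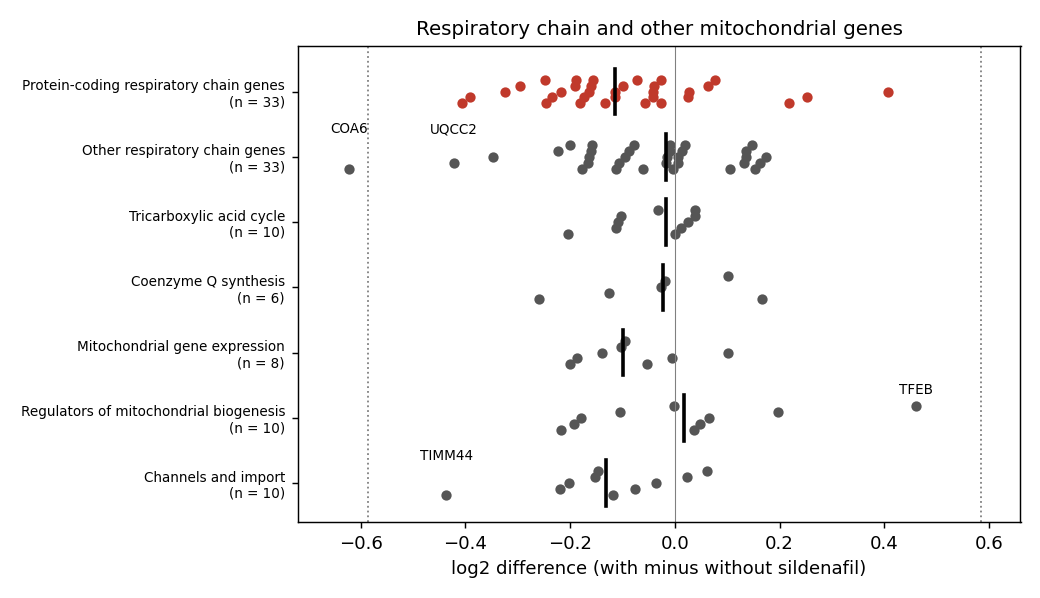
Difference in log2 signal (with minus without sildenafil) of the 33 protein-coding members past the filter (red) and of the genes of 6 other mitochondrial lists (grey), with 1 point a gene, a bar at the median and dotted lines at 1.5-fold; the vertical scatter carries no meaning. COA6 is the only point beyond a dotted line.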

How the data were processed

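Total RNA was amplified with a whole-transcript kit, biotin-labelled and hybridised to arrays, per the labels' protocols. Titles gave the groups; the short drug name added in 1 title was taken as sildenafil, the only second drug in the treatment text. The authors deposited log2 signals for 53617 probe sets, with 1 column an array. The log base is inferred: values reach 13.05, above the natural log (11.1) and below the log2 (16) of a 16-bit ceiling. The aligned distributions (sorted columns differ by at most 0.15) would hide a change shared by most transcripts. For the normalization method and genome build, nothing is given in the sources used here.

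Platform annotation named 16098 probe sets, and 779 genes had several. Lists, members and the rules below were chosen with earlier results of these data known. Named genes were the 5 furthest apart in each complex, isoform pairs, members with several probe sets and up to 3 genes a pathway list. Alternatives changed the filter, scaling, probe-set rule, threshold, summary and assignment of members. Calculations were tested on simulated data. Python 3.11.15, numpy 2.4.6, pandas 2.3.3, statsmodels 0.14.6 (lowess, span 0.3) and matplotlib 3.10.9 were used. The number of arrays limits the precision.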

Additional observations from a re-analysis of the deposited data

How the results depend on the processing

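Of 95 alternative values for medians and counts, 84 kept their sign and moved by less than 0.05 (medians) or 1.5 times (counts). Part of the 84 could not move, because the alternative changed no gene behind the value. The filters on both arrays or on their mean, for example, gave every value as reported. The count of 84 is therefore no measure of robustness. Under quantile normalization the median was -0.0544 for all members, -0.0562 for complex I, -0.0476 for complex III, -0.13 for complex V, -0.0536 for subunits and -0.0802 for assembly factors. For all named genes it was 0.0241 under this scaling, against -0.0106 as deposited. Without a filter the subunits had a median of -0.0423. With the mean of all probe sets, the complex IV median was -0.10 and 1 member, NDUFA6-DT, passed 1.5-fold, against none as reported. At a log2 difference of 0.32 the count was 6. With the non-coding genes counted by their prefix, an alternative added after the data were seen, the complex I median turned to 0.15, because 2 of its 4 genes were then NDUFA6-DT and NDUFB2-AS1. With COX6A1 by its other probe set, also added later, complex IV was at -0.07. NDUFA4 could not be moved to complex IV because it was not analysed here. No paired analysis was possible because each group holds 1 array. Signals near the filter limit what can be read from COX6A2, COX14 and the restricted isoforms.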

Other observations

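The transcribed pseudogene UQCRBP1, left out by the rule for members, read 4.20 without and 4.01 with sildenafil. Its difference of -0.19 lay beside that of -0.23 for UQCRB, the complex III gene it derives from, and signals of these 2 may not be separate.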
